A study of Sus scrofa with 2 samples.

Results

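Fragments of the histidine tRNA with anticodon GTG (tRNA-His) were counted in small RNA libraries of pig oocytes. Members were reads of 18 to 40 nt that matched mature tRNA-His on the sense strand with at most 1 mismatch, with or without the extra base at its 5' end and with its added CCA. They comprised 539 of the 1166705 distinct sequences, with 12843 of 11836160 reads in the control library and 15573 of 11982925 reads in the Dicer knockdown (KD) library. Both libraries came from oocytes matured in vitro for 42 h and labelled as metaphase II. The control group was labelled only as control, and whether it received a control siRNA was not given in the sources used here. In the other group Dicer, the ribonuclease that makes miRNAs and siRNAs, had been targeted with siRNA at the germinal vesicle stage. The number of oocytes or animals per library was not given in the sources used here. Dicer mRNA and markers of oocytes or of other cells were not analysed here, so neither the loss of Dicer nor the cell type was checked.

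A tRNA carries an amino acid at its 3' CCA end and reads a codon with its anticodon. The CCA is added after transcription. tRNA-His is unusual in that a dedicated enzyme, Thg1, also adds a G before the first encoded base, and the histidyl-tRNA synthetase recognises that base. Cuts in tRNAs give 5' fragments, 3' fragments and internal pieces, which are common in small RNA libraries. Small RNA from total RNA does not tell a stable fragment from one made during handling.

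The mature tRNA was rebuilt from the deposited reads of both libraries. The search began at the 9-base motif gccgtgatc, the start of the encoded tRNA, on the sense strand. The 2 pieces grown from the 5' end and from the CCA end met over 9 bases, where 1 read supported the thinnest step. The result is shown because all positions below refer to it, with the anticodon and the added CCA in capitals.
tRNA-His: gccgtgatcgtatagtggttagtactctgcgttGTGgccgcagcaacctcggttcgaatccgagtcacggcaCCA
Positions are counted from 1 at the first encoded base, and the extra base before it is position 0. The encoded part was 72 bases long, the length of all 9 genes named TRNAH-GUG in the RefSeq annotation of the pig assembly Sscrofa11.1. Bases 1 to 7 paired with bases 65 to 71 in the acceptor stem, the anticodon lay at positions 34 to 36, and the anticodon stem began at position 27. The rebuilding required the acceptor pairing and a GTG in the region of the anticodon, so these are not findings. The anticodon loop spanned positions 32 to 38 and the T loop, which helps to hold the folded tRNA together, positions 53 to 59. The reversed sequence, used as a decoy, matched 0 reads with up to 1 mismatch, and the antisense strand matched 2 control reads and 0 KD reads.

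The sequences shown here are among the commonest forms of their class, and they differ at both ends. The list leaves out other common forms. The base added before position 1, where there is one, is in capitals, as is the CCA of the 3' forms.
5' form with extra G, ending at 27: Ggccgtgatcgtatagtggttagtactc
5' form with extra T, ending at 23: Tgccgtgatcgtatagtggttagt
5' form with extra T, ending at 26: Tgccgtgatcgtatagtggttagtact
5' form with extra T, ending at 27: Tgccgtgatcgtatagtggttagtactc
5' form without extra base, ending at 23: gccgtgatcgtatagtggttagt
5' form without extra base, ending at 26: gccgtgatcgtatagtggttagtact
5' form without extra base, ending at 30: gccgtgatcgtatagtggttagtactctgc
Internal form from 2 to 30: ccgtgatcgtatagtggttagtactctgc
3' form: tcgaatccgagtcacggcaCCA
3' form with C at position 58: tcgactccgagtcacggcaCCA

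Nearly all tRNA-His reads were 5' fragments, in both libraries. They made up 91.1% of control tRNA-His reads (exact binomial 95% interval 90.6 to 91.5%) and 92.2% of KD tRNA-His reads (91.7 to 92.6%). Internal fragments were 8.18% and 7.49%. 3' fragments, which ended within the CCA or at the base before it, were only 0.763% and 0.360%. Accordingly, coverage fell from 11844 control and 14639 KD reads at position 23 to 131 and 112 reads at position 35, inside the anticodon.

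Each group was a single library (n = 1), which allows no test, and every ratio below compares these libraries. All intervals are at the 95% level and reflect counting error alone, because 1 library per group leaves no replicate error. Reads copied by PCR without molecular tags do not count molecules independently, so the intervals may be too narrow even for that. As a whole, tRNA-His fragments stood at 1085 RPM (reads scaled to 1000000 reads of the library) in the control library, with an exact Poisson interval of 1066 to 1104. In the KD library they stood at 1300 RPM (1279 to 1320). The ratio of KD to control was 1.20 (exact conditional interval 1.17 to 1.23). Other reads of 18 to 40 nt that began with G, the commonest first base of the members, had a ratio of 1.23 (1.22 to 1.23). Measured against those reads, tRNA-His was slightly lower in the KD library, with a ratio of 0.975 (0.952 to 0.998).

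The classes did not share this ratio. 5' fragments without the extra base were higher in the KD library, at 274 and 439 RPM, a ratio of 1.60 (1.54 to 1.68). 5' fragments with an extra base were at 714 and 758 RPM, a ratio of 1.06 (1.03 to 1.09). For internal fragments the ratio was 1.10 (1.01 to 1.19), on 1050 and 1166 reads. 3' fragments were lower in the KD library, at 98 and 56 reads and a ratio of 0.564 (0.399 to 0.792). The class without the extra base stayed above 1 relative to other reads beginning with G, at 1.31 (1.25 to 1.36), whereas the class with it fell to 0.864 (0.839 to 0.890). Internal fragments fell to 0.893 (0.820 to 0.971) on that scale. That scale matched first bases only in part. Of reads with an extra base, 43.8% in the control library and 41.3% in the KD library began with T. Of internal reads, 69.1% and 75.5% started at position 2, a C in the tRNA.

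Among 5' reads, the share that carried an extra base was 72.3% for the control (71.5 to 73.1%) and 63.3% for the KD library (62.5 to 64.1%). That base was G in 54.03% of control reads with an extra base (52.96 to 55.1%), and T in nearly all others, 43.8% (42.7 to 44.8%). In the KD library G was at 56.4% and T at 41.3%. A was found in 2.06% and 2.12% of these reads and C in 0.142% and 0.198%. An extra T counts as the substitution G0T and used up the 1 mismatch allowed. Reads with an extra T were at equal levels in the libraries, with 3701 and 3755 reads and a ratio of 1.002 (0.957 to 1.05). Reads with an extra G had 4569 and 5123 reads, a ratio of 1.11 (1.06 to 1.15).

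The extra base went with where the fragment ended. Of the 5' reads that ended at position 27, the first base of the anticodon stem, 91.7% carried an extra base in the control library (90.6 to 92.7%) and 89.3% in the KD library (88.3 to 90.3%). At position 28 the shares were 78.5% and 60.8%. They were 29.8% and 17.3% at position 29. At position 30, inside the stem, 3.14% (2.11 to 4.48%) and 0.787% (0.441 to 1.30%) of the reads carried it. Fragments ending at 29 or 30 thus mostly began at base 1, and those ending at 27 mostly 1 base earlier, in each library. At positions 23, 24 and 26 the shares ran from 74.8 to 75.7% among control reads and from 69.6 to 71.0% among KD reads. Other short ends differed from these, with 93.0% and 87.8% at position 21, 87.0% and 84.6% at 22, and 57.6% and 54.5% at 25. With an extra base, a read is 1 nt longer for the same end, so its length is 28 nt for an end at 27 and 31 nt for an end at 30. Reads of other sequences numbered 275539 at 30 nt and 51670 at 31 nt for the control, and 305073 and 45087 for the KD library. Those of them that began with G went the other way in the control library, with 6296 reads at 30 nt and 14946 at 31 nt, and numbered 8858 and 6529 in the KD library. The part of read length in the shares of the extra base was not tested.

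G and T as extra base did not share the same ends. T was found in 59.0% of control reads with an extra base that ended at position 23 (56.7 to 61.2%) and in 56.04% of those that ended at 26 (53.5 to 58.6%). At an end at 27 it was found in 18.8% (17.3 to 20.4%). The KD library gave 55.5%, 59.3% and 21.7% for these ends. Seen from the other side, 42.5% of control reads with an extra G ended at position 27, against 12.6% of those with an extra T. In the KD library these shares were 51.6% and 20.4%. The intervals of the T share at 23 and at 27 did not overlap in either library.

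The most abundant member of all was the 28-nt form with extra G that ended at position 27. It had 1863 control reads and 2456 KD reads, 157 and 205 RPM, a ratio of 1.30 (1.23 to 1.38). The same end with an extra T had 468 and 766 reads, a ratio of 1.62 (1.44 to 1.82). Both were higher in the KD library, and reads with any extra base and this end had a ratio of 1.40 (1.33 to 1.48). Other 28-nt reads beginning with G had 1.31 (1.29 to 1.34), and those of them with 45 to 60% GC had 1.16 (1.12 to 1.19). Over all first bases, other 28-nt reads had 1.11 (1.106 to 1.112).

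Shorter forms with an extra base lay on both sides of 1. The 24-nt form with extra T, ending at 23, had 1106 and 989 reads, a ratio of 0.883 (0.810 to 0.963). The 27-nt form with extra T had 853 and 824 reads, and its ratio of 0.954 (0.866 to 1.05) did not differ from 1 beyond counting error. The 24-nt form with extra G, Ggccgtgatcgtatagtggttagt, had 680 and 707 reads, a ratio of 1.03 (0.923 to 1.14). Ggccgtgatcgtatagtggttag, 1 base shorter, was higher in the KD library, with 76 and 107 reads and a ratio of 1.39 (1.03 to 1.89). Other reads beginning with G had ratios of 1.41 (1.39 to 1.42) at 23 nt, 1.27 (1.26 to 1.28) at 24 nt and 1.27 (1.25 to 1.29) at 27 nt. These do not match the first base of the forms with extra T. Over all first bases, other reads had 0.946 (0.944 to 0.948) at 24 nt and 1.037 (1.034 to 1.039) at 27 nt. The smallest ratios among members with at least 100 reads belonged to 3 sequences. Ggccgtgatcgtatagtggttagtact, the form with extra G that ended at 26, had 618 and 501 reads, a ratio of 0.801 (0.710 to 0.902). Ggccgtgatcgtatagtggtta, ending at 21, had 267 and 210 reads, a ratio of 0.777 (0.645 to 0.934). The third, ccgtgatcgtatagtggttagta, was an internal form from 2 to 24 with 96 and 74 reads, a ratio of 0.761 (0.555 to 1.04). Taken over all reads with an extra base, those ending at position 24 or before had a ratio of 0.911 (0.869 to 0.954), those ending at 25 to 27 had 1.21 (1.16 to 1.26), and those ending at 28 to 30 had 0.968 (0.857 to 1.09). Single ends within these ranges differed, with 0.850 (0.780 to 0.926) at 24 against 1.17 (0.961 to 1.41) at 22, and 0.902 (0.838 to 0.971) at 26 against 1.18 (0.943 to 1.47) at 25.

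Without the extra base, the longest fragments differed most between the libraries. The 30-nt form that ended at position 30 had 851 control and 1772 KD reads, 71.9 and 148 RPM, a ratio of 2.06 (1.89 to 2.23). gccgtgatcgtatagtggttagtactctg, 1 base shorter, had 328 and 639 reads, a ratio of 1.92 (1.68 to 2.21). gccgtgatcgtatagtggttagtactct, ending at 28, had the largest ratio of these members, 2.37 (1.86 to 3.04), on 95 and 228 reads. These 3 forms nest within each other and share their 5' end. By contrast, the 26-nt form had 488 and 520 reads, a ratio of 1.05 (0.928 to 1.19), and the 23-nt form 567 and 718 reads, a ratio of 1.25 (1.12 to 1.40). Grouped by end, reads without the extra base had ratios of 1.22 (1.13 to 1.33) up to position 24, 1.33 (1.21 to 1.45) at 25 to 27 and 2.08 (1.95 to 2.23) at 28 to 30. The middle range was mixed, with 1.10 (0.971 to 1.24) at 26 against 1.85 (1.57 to 2.18) at 27, the latter on 225 and 421 reads.

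Other reads of the same lengths were set beside these forms. Other reads of 30 nt had a ratio of 1.09 (1.09 to 1.10), and those of them that began with G had 1.39 (1.35 to 1.44). Those that began with G and held 45 to 60% GC had 1.89 (1.79 to 1.996), on 2003 and 3832 reads. The interval for the tRNA-His form of 30 nt overlapped this last one. At 29 nt the corresponding other reads, beginning with G and with 45 to 60% GC, had 1.15 (1.11 to 1.19), and at 28 nt 1.16 (1.12 to 1.19), both below the values of the tRNA-His forms without the extra base. At 27 nt such other reads had 1.26 (1.24 to 1.28), below the tRNA-His form without the extra base, at 1.89 (1.59 to 2.24). At 23, 24 and 26 nt they had 1.54 (1.53 to 1.56), 1.36 (1.35 to 1.37) and 1.34 (1.32 to 1.36). These lay above the tRNA-His forms of those lengths without the extra base. The part of length and composition in the result was not tested.

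Of the 539 members, 30 had at least 100 reads over the pair of libraries, and these held 89.6% of the tRNA-His reads. They comprised 17 5' forms with an extra base, 9 without it and 4 internal forms, and no 3' form reached this minimum. At least 2-fold higher in the KD library were 2 of the 30, the forms without an extra base ending at 28 and at 30, and 0 were at least 2-fold lower. Of all 13658 sequences that reached 100 reads, 5.71% passed 2-fold upwards and 5.68% downwards, so the share of members past 2-fold upwards was near the background. Among the 2730 of 18 to 40 nt that did not start with T, 11.6% passed upwards and 6.85% downwards. The median log2 ratio was 0.10 over the 30 members and -0.06 over all 13658 sequences. All 9 forms without the extra base had ratios above 1, as did 9 of the 17 forms with it. Of all 13658 sequences 45.7% had a ratio above 1, and of the 2730 sequences of 18 to 40 nt that did not start with T 48.9% did. Many of the 509 members with fewer reads were rare, with 231 seen as a single read. 131 members, 24.3%, were found in the control library alone, with at most 9 reads each, and 218, 40.4%, in the KD library alone, with at most 27 reads. Of all 1166705 sequences, 40.9% were found in the control library alone and 38.2% in the KD library alone.

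5' fragments that reached into the anticodon loop were nearly absent. Only 7 of 11695 control 5' reads and 1 of 14351 KD 5' reads ended at position 32 or later, a share of 0.0599% (0.0241 to 0.123%) and 0.00697% (0.000176 to 0.0388%). Such fragments would be 32 nt or longer. Reads longer than 32 nt, a slightly different limit, were 0.209% and 0.260% of all reads in the tables. The part of read length in this result was not tested. Among internal reads, pieces cut within the loop were more common. Those that ended at positions 32 to 37 numbered 76 and 39, mostly with an end at 33, which had 57 and 31 reads and a ratio of 0.537 (0.335 to 0.846). Internal reads that started at position 35, within the anticodon, numbered 108 and 86, 10.3% and 7.38% of internal reads. Together, internal reads that ended at 32 to 37 or started at 33 to 38 were 17.8% of control internal reads (15.5 to 20.3%) and 10.8% of KD internal reads (9.08 to 12.7%). With the 5' reads included, such pieces were 1.51% of all control tRNA-His reads (1.31 to 1.74%) and 0.816% of KD reads (0.680 to 0.970%).

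Most internal fragments lacked just the first encoded base. Reads that started at position 2 were 69.1% of control and 75.5% of KD internal reads, with 726 and 880 reads and a ratio of 1.20 (1.08 to 1.32). Position 30 was their commonest end, at 34.4% of the control reads and 42.7% of the KD reads, as it was for reads that began at base 1, at 27.6% and 35.9%. Other ends differed between these starts. An end at 26 was found in 26.4% and 24.9% of the reads that started at position 2, against 15.8% and 10.8% of those that began at base 1. An end at 23 was found in 5.10% and 3.30%, against 18.6% and 14.8%. The intervals of the start at 2 and the start at 1 did not overlap for either of these ends, in either library. The form from 2 to 30 was read 238 and 356 times, a ratio of 1.48 (1.25 to 1.75). ccgtgatcgtatagtggttagtact, from 2 to 26, was read 184 and 198 times, a ratio of 1.06 (0.865 to 1.31). Reads that started at positions 5 to 20 were fewer and lower in the KD library, with 160 and 126 reads and a ratio of 0.778 (0.611 to 0.989). Reads that spanned the whole anticodon numbered 20 and 22.

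The 3' fragments formed a small, uniform group. They started at position 54, the second base of the T loop, in 83 of 98 control reads and 46 of 56 KD reads. The full CCA was present in 71 control and 32 KD reads, a ratio of 0.445 (0.284 to 0.685). The commonest form carried C at position 58, the substitution A58C, and had 28 and 17 reads, a ratio of 0.5997 (0.308 to 1.13). The form with A had 26 and 11 reads, a ratio of 0.418 (0.186 to 0.875). Its shorter forms tcgaatccgagtcacggcaC and tcgaatccgagtcacggcaCC each had 7 control and 6 KD reads. At these depths neither form with 22 nt can be said to differ more than the other.

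Position 58 thus held a pair of bases at similar levels. C was read there in 49 of 109 control reads, 44.95% (35.4 to 54.8%), and in 37 of 71 KD reads, 52.1% (39.9 to 64.1%), and the intervals overlapped. A read with C had used up the 1 mismatch allowed, so the share of C may be understated. With both forms as the reference, 3' fragments had 106 control and 57 KD reads, against 98 and 56. The rebuilt forms with A and with C were identical at every other position. Beside the anticodon, at position 37, which is often modified in tRNAs, another base than G was read in 16 of 129 control reads, 12.4% (7.26 to 19.4%), and 6 of 108 KD reads, 5.56% (2.07 to 11.7%). These were G37C in 9 and 6 reads and G37T in 7 and 0 reads. The intervals overlapped there too.

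At position 5, in the acceptor stem, the libraries differed in the base that was read. An extra base other than G had already used up the mismatch allowed, so shares were taken over reads with an extra G and reads that started at 1 or 2. Another base than T was read there in 4 of 8534 control reads, 0.0469% (0.0128 to 0.120%), and in 312 of 11265 KD reads, 2.77% (2.47 to 3.09%). All 3 other bases occurred, with T5G in 139 KD reads, T5C in 113 and T5A in 61, against 2, 1 and 1 in the control library over all fragments. The reads ended at all the usual places, with 83 of the KD reads ending at position 27 and 66 at position 30. Reads with an extra T, once that T was taken as part of the tRNA, gave the same picture, with 1 of 4059 control reads and 84 of 4115 KD reads.

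The same tRNA position falls on different bases of the read. For reads with an extra G and for those that started at 1 and 2, position 5 is the base read as number 6, 5 and 4. The KD shares were 2.83% (2.39 to 3.32%), 2.93% (2.49 to 3.42%) and 1.48% (0.789 to 2.51%), against 0.0657%, 0.0309% and 0 of 726 control reads (0 to 0.507%). In the most abundant forms with extra G, the base read as number 5, which is position 4, differed from the tRNA in 0.0652% of KD reads. Among the 200 most abundant other sequences, single-base differences at the base read as number 5 took 1.59% of control reads and 1.64% of KD reads, and at number 6 1.30% and 1.32%. Shares were lower at number 4, 0.0943% and 0.0894%, at number 7, 0.161% and 0.0985%, and at number 1, 0.616% and 0.858%. Any sequence 1 base away was counted, so related sequences can be among these differences. The neighbouring position 6 also varied, but at similar levels in the libraries, with 2.33% (2.02 to 2.67%) and 2.27% (2.01 to 2.56%). There the changes were mostly G6A, with 113 and 159 reads, and G6C, with 78 and 75. The source of the difference at position 5 was not tested.

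Mismatches at the last base of a 5' read were mostly A. 5' reads whose last base was a mismatched A numbered 152 and 147, a ratio of 0.955 (0.756 to 1.21), against 12 and 33 with T, 2 and 4 with C, and 4 and 4 with G. Over all fragments, a last-base A stood in place of C at position 25 in 73 and 112 reads and in place of T at position 23 in 51 and 37. Sequences just outside the matching rule, with exactly 2 mismatches, had 432 control and 446 KD reads, and 358 and 360 of these began with an extra T.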

How the data were processed

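Small RNA was sequenced by the authors after adapter ligation, reverse transcription and PCR, per the labels' protocols. They deposited 1 table per library with raw read counts per distinct sequence of 18 to 44 nt, not normalized. The submitters' processing notes name Bowtie2. Its settings, the trimming and the genome build are not given in the sources used here.

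No genome or tRNA sequence was used, and no coordinates are given. tRNA-His was rebuilt from the reads, extending 1 base at a time by the base that most reads carried beside the last 16. The 3' end had to pair with the 5' end over 7 bases, followed by 1 unpaired base and CCA, and the pieces had to share at least 7 bases. A GTG was also required in the region of the anticodon. Of the 2 forms obtained, the one that each library alone also gave was used. Reads were matched without gaps, and 0 sequences matched equally well at several places. A 5' fragment started at position 0 or 1, a 3' fragment ended at 72 to 75, and all others were internal. RPM values divide by all reads of the library. Ratios have exact conditional intervals, shares exact binomial (Clopper-Pearson) intervals and RPM values exact Poisson intervals. The call used at least 100 reads and a 2-fold ratio.

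The members and lists were chosen with earlier results of these data known. Named sequences were the top 3 of each class, the top form at the 3 commonest lengths of a class, the 3 largest and 3 smallest ratios, and the top 3 with a mismatch. Substitutions, positions and the forms with extra G of 23 and 24 nt were chosen after their values were seen. Matching and intervals were tested on simulated data. Alternatives covered mismatches, length, rare sequences, denominators, class limits and the reference. Calculations ran in Python 3.11.15 with pandas 2.3.3, scipy 1.17.1 and numpy 2.4.6.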

Additional observations from a re-analysis of the deposited data

How the results depend on the processing

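Ratios are KD over control. Of 66 alternative values, 56 stayed within the main interval or, for counts and the extra-base share, within their limit, 5 moved and 5 changed side of 1. What the reads were divided by decided most of these. Relative to reads that did not start with T, the ratio was 1.09 for all fragments, 1.46 for 5' fragments without the extra base, 0.964 for those with it and 0.996 for internal fragments. Relative to other reads starting with G, chosen after the data were seen, it was 0.975, 1.31, 0.864 and 0.893. Without mismatches the ratio of all fragments was 1.26, and with G required as the extra base that class had 1.11. The direction of all fragments, of 5' fragments with the extra base and of internal fragments therefore depends on the denominator, while 5' fragments without it (1.31 to 1.61) and 3' fragments (0.445 to 0.644) kept their side of 1 in every alternative. For exact 3' matches the interval held 1 (0.393 to 1.04). The extra-base share fell by 8.85 to 9.25 percentage points across the alternatives. The reference from each library alone was identical, so that alternative repeats the main values, and these are counted among the 56. With 98 and 56 reads, 3' fragments are limited by depth. No replicate could be left out, and no paired analysis was possible because each group has 1 library.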

Other observations

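Some reads ran past the tRNA's ends and were not counted as members. Reads that held the first 15 bases of tRNA-His with 2 or more bases before them numbered 58 among control and 38 among KD reads, with a ratio of 0.647 (0.418 to 0.991), in 18 distinct sequences. Reads that ran beyond position 72 into bases other than CCA numbered 2 and 0.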
